A study of Mus musculus with 6 samples.

Results

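Claudins and tight junction genes were followed in subcutaneous pancreatic tumours of mice. The set holds 10 genes chosen by name, of 18194 genes with a named single-gene probe set on the array: the claudins Cldn1, Cldn2, Cldn3, Cldn4, Cldn7, Cldn18 and Cldn23, and Ocln, Tjp1 and F11r. They are measured by 20 probe sets, and the probe set of highest mean stands for each gene. KPC1199, a line of mouse pancreatic ductal adenocarcinoma cells, was placed under the skin of the right back to form every tumour. In the lactation group (3 tumours) the host was pregnant or had begun to nurse at injection, and the labels do not say which; the control group (3 tumours) came from mice of the same age. Tumours were taken 20 days after injection, and each was hybridised to its own Affymetrix array. The labels name no strain, no treatment and no further allele for either group, and the tumours are grafts of 1 cell line. The labels call the tumours biological replicates.

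Tight junctions close the gap between neighbouring epithelial cells near their apical side. Claudins are small membrane proteins that form the strands and set which ions pass between cells, some as seals and some as pores. Occludin and junctional adhesion molecules lie beside them, and ZO proteins tie the strands to the actin cytoskeleton. In pancreas these junctions seal the ducts, and ductal tumours that keep an epithelial form keep many of their claudins.

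Values are MAS5 signals, a linear scale on which each array was set to a common mean by the authors. Array medians were 99.3 to 111.0, and the number of arrays limits the precision. The duct keratins Krt8 and Krt18 had signals of 19958 to 24228 and 19004 to 23872, so the tumours carried the epithelial markers of their label. Skeletal muscle markers were highest in lactation replicate 1 and control replicate 2, where the mean log2 level of 3 genes was 13.77 and 13.68 against 10.28 to 12.21 elsewhere. Milk protein genes as a sum stood out in lactation replicate 2, at 1191 for 5 genes against 134 to 172 on the other 5 arrays. Csn2, Csn1s1 and Csn3 carried most of that sum, while Wap, at 46.3, lay within the 41.2 to 70.3 of the other arrays. In whole tumours, fewer cells of a type and less RNA per cell cannot be told apart.

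The members fell into 2 classes by signal. Cldn2, Cldn3, Cldn4, Cldn7, Ocln, Tjp1 and F11r were at or above the median signal on all 6 arrays. Cldn1, Cldn18 and Cldn23 were not above it in the 3 arrays that the level filter asks for. The filter left 11623 genes, 7 of the members among them. Median ranks among all 18194 genes of an array were the 95.9th percentile for Cldn7, the 95.5th for Tjp1, the 91.3rd for F11r and the 91.1st for Cldn2. Ocln and Cldn3 had median ranks of 78.6 and 79.4, and Cldn4 of 73.5. Cldn1, Cldn23 and Cldn18 had 35.7, 32.1 and 28.4. The ranges over the arrays overlapped between most neighbours in this order, for instance 92.7 to 98.1 for Cldn7 beside 94.6 to 95.9 for Tjp1. They were apart between Tjp1 and F11r, which reached 93.2 at most, and between Cldn4, at 60.2 or more, and Cldn1, at 38.7 or less. Probe sets differ in how well they bind their target, so these are ranks of signal and not of transcript number.

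**Figure D1:**
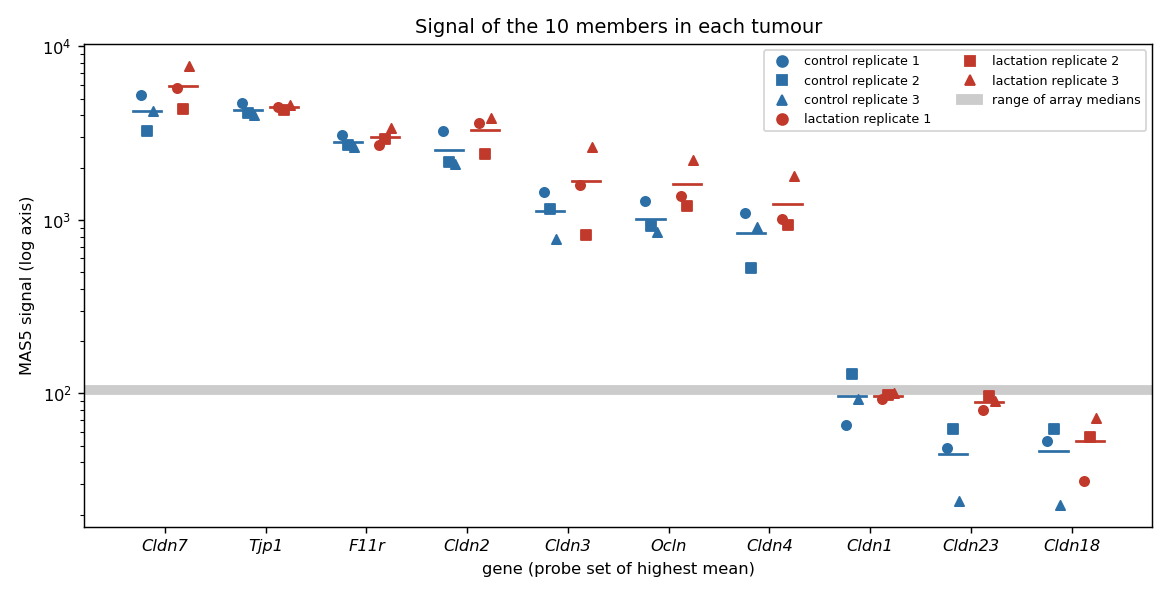
MAS5 signal (log axis) of the 10 members in each of the 6 tumours, with a horizontal bar at each group mean (3 tumours per group) and a grey band for the range of the array medians, 99.3 to 111.0. Cldn1, Cldn23 and Cldn18 lie at or under the band apart from 1 control value, and lactation replicate 3 is the highest tumour for 7 of the 10 genes.

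No member passed the comparison of lactation with control. Of the 11623 genes tested with limma, 0 had an adjusted p under 0.05, which is 0.0% of them, and 264 had an unadjusted p under 0.05. The latter split into 175 with lactation higher and 89 with lactation lower, and into 109 and 125 once arrays were centred on their medians. All 10 members had a higher mean in lactation, where 49.5% of all 18194 genes did; with centred arrays these were 10 members, Cldn1 at 0.0, and 38.5% of genes. The median log2 difference was 0.42 over the 10 members and 0.0 over all genes. The 7 members above the level filter were all among the positive ones, against 48.3% of genes above it, and so were all 20 probe sets of the members, against 50.2% of single-gene probe sets. The groups overlapped for 9 of the 10, all but Cldn23, and among all genes 4.24% were separate with lactation higher. Of the 7 above the filter 0 were separate, against 3.71% of such genes with lactation higher and 6.9% in either direction. Lactation replicate 3 was the highest tumour for 7 of the 10, as it was for 18.1% of all genes. The members share the same tumours and were correlated over them, so their shared sign is not 10 separate observations. Without lactation replicate 3 the median over the members was 0.16 with 9 positive (9 also without control replicate 1 or 3), and without lactation replicate 2 it was 0.63.

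Cldn7, a sealing claudin that binds the adhesion protein Epcam, had signals of 5724, 4350 and 7712 in lactation replicates 1, 2 and 3 and of 5265, 3249 and 4233 in control replicates 1, 2 and 3. Lactation replicate 3 was the highest and control replicate 2 the lowest, and the groups overlapped. The means were 5929 ± 1690 and 4249 ± 1008 (SD, n = 3 each), a log2 difference of 0.47 (standard error 0.24, limma adjusted p 1.0), which was 0.26 without lactation replicate 3 and 0.29 without control replicate 2.

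Cldn4, a sealing claudin and receptor for a Clostridium enterotoxin, measured 1010, 932 and 1786 in lactation and 1094, 526 and 912 in controls. Its spread over the tumours was the widest among the 7 brighter members, 3.4-fold from control replicate 2 to lactation replicate 3. The log2 difference was 0.55 (standard error 0.33, limma adjusted p 1.0), and 0.25 without control replicate 2 or 0.26 without lactation replicate 3. Cldn3, which binds the same toxin and is the next gene to Cldn4 on chromosome 5 in the RefSeq annotation, measured 1598, 813 and 2617 in lactation and 1447, 1158 and 781 in controls. Its high and low values interleaved between the groups, with lactation replicate 2 near the lowest control. The log2 difference was 0.45 (standard error 0.42), and it was 0.89 without lactation replicate 2. Leaving out control replicate 3 gave 0.22, and leaving out lactation replicate 3 gave 0.06. The 4 probe sets of Cldn3 had differences of 0.38 to 0.45, and lactation replicate 3 was the highest tumour in each. The one that stands for the gene is of a type (x_at) that can bind related transcripts, and the lowest of the 4 differences came from one that is not.

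Cldn2, which forms cation and water pores and marks leaky epithelia, measured 3613, 2394 and 3844 in lactation and 3261, 2164 and 2108 in controls. The 6 tumours fell into a high set of lactation replicates 1 and 3 with control replicate 1, and a low set of lactation replicate 2 with control replicates 2 and 3. The gap between the sets took 0.515 of the range on the log2 scale. Sets of 3 and 3 that cross the groups left a log2 difference of 0.38 (standard error 0.23, limma adjusted p 1.0), which was 0.60 without lactation replicate 2 and 0.59 without control replicate 1. It was 0.21 without the pair of tumours of highest muscle signal. The second probe set of Cldn2 had 825, 485 and 805 against 725, 518 and 441, with the same high and low tumours.

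Ocln, which encodes occludin, measured 1373, 1208 and 2227 in lactation and 1280, 924 and 850 in controls. Only control replicate 1 lay above the lowest lactation tumour. Its log2 difference of 0.62 (standard error 0.25) was the largest of the 7 brighter members, with an unadjusted p of 0.0438 and an adjusted p of 1.0 in limma. Among the 11623 genes tested, 1.51% had an unadjusted p under 0.05 with lactation higher. The difference was 0.36 without lactation replicate 3, and the second probe set of Ocln gave 0.52.

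Tjp1 and F11r varied least. Tjp1, the scaffold protein ZO-1, measured 4473, 4323 and 4617 in lactation and 4713, 4107 and 4048 in controls, a spread of 1.16-fold over all tumours. F11r, the junctional adhesion molecule JAM-A, measured 2710, 2938 and 3397 against 3078, 2712 and 2644, a spread of 1.29-fold. Their log2 differences were 0.06 and 0.10, with standard errors of 0.08 and 0.11, both positive but smaller with arrays centred on their medians, at 0.02 and 0.05. Leaving out control replicate 3 gave 0.02 for Tjp1, and leaving out control replicate 1 gave 0.13. For F11r the value was 0.01 when lactation replicate 3 was dropped and 0.17 when lactation replicate 1 was.

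By the probe set of highest mean, Cldn23, a claudin of intestinal epithelium, was the one member whose groups did not overlap. It measured 79.9, 97.1 and 90.8 in lactation and 48.2, 62.5 and 24.1 in controls. All 6 values lay under the array medians, so the gene stayed below the level filter. In the limma fit with no filter its log2 difference was 0.84 (standard error 0.29, unadjusted p 0.0223, adjusted p 1.0), where 1.89% of all genes had an unadjusted p under 0.05 with lactation higher. The difference was 0.57 without control replicate 3 and 0.51 with an added constant of 64. Cldn1, the claudin of the skin barrier, measured 92.3, 98.3 and 101 against 66.2, 130 and 93.1, a log2 difference of 0.05, and its 3 other probe sets were dimmer still. In 1 of these the groups just missed overlapping, at 54.2, 56.2 and 50.5 against 37.9, 34.1 and 50.4, a log2 difference of 0.30. Among all genes, by the probe set of highest mean, 4.24% were separate with lactation higher. Cldn18, the claudin of stomach and lung that is a target for antibodies in gastric and pancreatic cancer, measured 31.4, 55.8 and 71.7 against 53.5, 62.6 and 22.8, and its second probe set 4.04 to 41.4. The sign of both genes turned when single arrays were left out, with a range of -0.16 to 0.26 for Cldn1 and of -0.14 to 0.41 for Cldn18. Beside Cldn18, the gastric markers Tff1 and Tff2 were above the level filter while Gkn1, Gkn2 and Muc5ac were not.

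**Figure D2:**
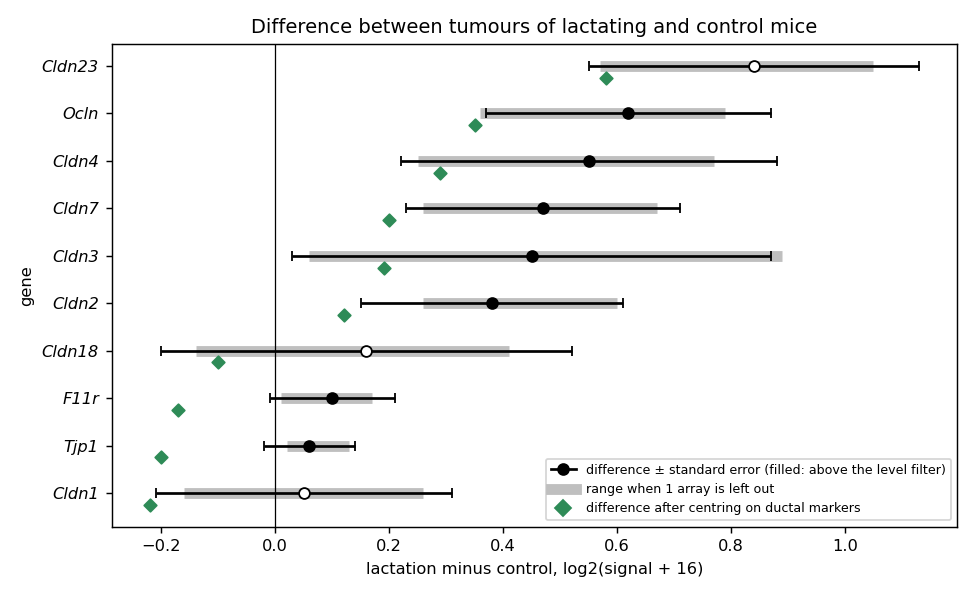
Log2 difference (lactation minus control) of each member with its standard error over 3 against 3 tumours, with filled points for genes above the level filter, grey bars for the range when 1 array is left out and green diamonds for the difference after arrays were centred on ductal markers. All 10 differences are positive, from 0.05 for Cldn1 to 0.84 for Cldn23, and each diamond lies to the left of its point.

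The brighter members were compared with one another across the tumours. For 6 of them, leaving out Cldn2 whose tumours form separate sets, all 15 pairs had positive Pearson correlations of log2 signal over the 6 tumours, from 0.64 to 0.96. Cldn4 and Cldn7 were closest, with r = 0.96 (exact permutation p = 0.00972) and Spearman's rho = 0.94 (exact permutation p = 0.0167), and r was 0.80 without the tumours farthest from the median of Cldn4. Cldn7 and Ocln had r = 0.91 (exact permutation p = 0.0153) and rho = 0.94 (exact permutation p = 0.0167), with r = 0.79 without the tumours farthest from the median of Cldn7. Cldn3 and Ocln had r = 0.87 (exact permutation p = 0.0194) and rho = 0.94 (exact permutation p = 0.0167), but r was 0.37 without the tumours farthest from the median of Cldn3, so that relation rests on them. Cldn3 and Cldn4, neighbours in the genome, had the lowest value, r = 0.64 (exact permutation p = 0.143) and rho = 0.77 (exact permutation p = 0.103). After Benjamini-Hochberg adjustment over the 15 pairs the lowest exact permutation p was 0.097 for r, so none passed. Without the tumours farthest from the median of the first gene, r over the 15 pairs ran from -0.18, for Cldn3 and F11r, to 0.95. For Cldn7 and F11r it was then 0.16, so these relations rest on those tumours. With each tumour's deviation from its group mean in place of its level, r ranged from 0.56 to 0.94. With levels taken relative to the ductal marker mean described next, it ranged from -0.79 to 0.92 with a median of -0.36. All pairs of Cldn3, Cldn4, Cldn7 or Ocln with Tjp1 or F11r were then negative, while Cldn4 with Cldn7 had 0.92 and Tjp1 with F11r 0.91. That subtraction enters every gene, so genes that vary little share the marker mean with its sign turned. All pairs share the 6 arrays, and lactation replicate 3 was the highest tumour for all of these genes but Tjp1.

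**Figure D3:**
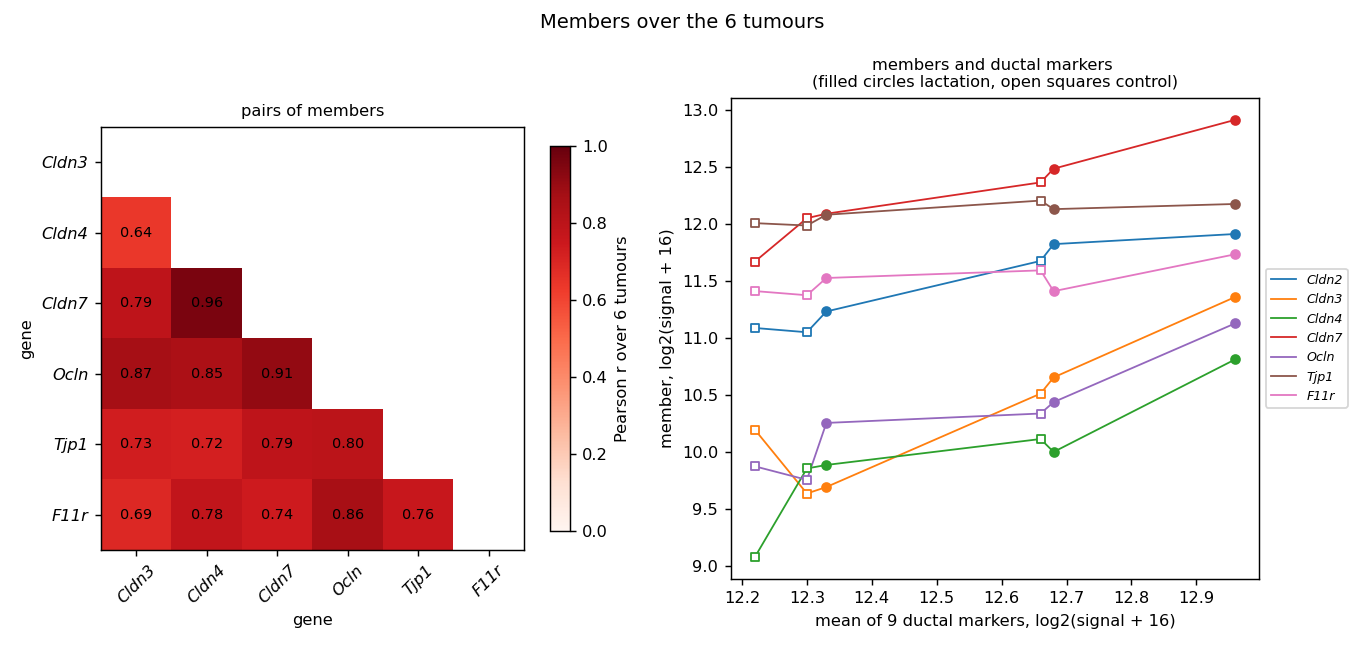
Left, Pearson r over 6 tumours for the 15 pairs of 6 members; right, log2(signal + 16) of 7 members in each tumour against the mean of 9 ductal markers, with filled circles for lactation and open squares for control. The r values run from 0.64 to 0.96, and the lines of Cldn3, Cldn4, Cldn7 and Ocln are steeper than those of Tjp1 and F11r.

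Ductal epithelial markers were set beside the members. The mean log2 level of 9 markers (Krt8, Krt18, Krt19, Krt7, Epcam, Cdh1, Muc1, Tspan8 and Sox9) was 12.68, 12.33 and 12.96 in lactation tumours and 12.66, 12.22 and 12.3 in controls, highest in lactation replicate 3, as for 7 of the 10 members, and lowest in control replicate 2. Of the 7 brighter members, Cldn4 and Cldn7 were lowest in control replicate 2 and the other 5 in control replicate 3. The summed signal of the ductal markers ran from 74242 to 103826 in lactation and from 69751 to 87485 in controls, and none was near 0. Fibroblast markers had their highest mean log2 level in control replicate 3, at 13.92 against 13.38 to 13.57 in the other tumours. Endothelial markers did too, at 9.39 against 8.61 to 9.06, although Tek among them was highest in control replicate 2. Leukocyte markers ran opposite to the ductal ones in lactation replicate 3, with a mean log2 level of 9.41 against 9.83 to 10.1 in the other tumours. Ptprc, Cd68 and Lyz2 were lowest there, and so was Cd79a, a gene below the level filter, at 3.94 against 22.9 to 36.1. Cd3e was not, at 167 beside 107 to 209. Markers of skin keratinocytes were also highest in lactation replicate 3, with a mean log2 level of 7.52 against 6.93 to 7.16, and a summed signal of 4477 to 9020 in lactation and 4139 to 8050 in controls. Of these 7 markers 3 were above the level filter, Krt5, Krt14 and Krt10, while Krt1, Lor, Flg and Ivl were not. Krt5 measured 347, 331 and 838 against 269, 242 and 147, a log2 difference of 1.06 (limma adjusted p 1.0). Its groups did not overlap, as for 3.71% of the genes tested with lactation higher. The groups overlapped for the other markers of this list, with Krt14 at 0.27 and Krt10 at -0.05. Differences of the dimmer Krt1, Lor, Flg and Ivl were -0.12 to 0.10. The part of any of these in the members' values was not tested.

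Arrays were therefore also centred on the ductal marker mean, a choice made after the values were seen, which lowers every difference by 0.26. The markers did not share that shift evenly. Muc1 and Tspan8 had log2 differences of 0.60 and 0.64, while Krt8, Krt18 and Sox9 had 0.05, 0.03 and 0.06. Krt19, Krt7, Epcam and Cdh1 had 0.29, 0.18, 0.19 and 0.33. The differences were then 0.35 for Ocln, 0.29 for Cldn4, 0.20 for Cldn7, 0.19 for Cldn3 and 0.12 for Cldn2, and those of Tjp1 and F11r turned to -0.20 and -0.17. Cldn1 and Cldn18 turned negative too, so 6 of the 10 members were positive, where 11.5% of all genes were. Centring moved the median over all genes to -0.27, so that share is low by construction and is no neutral reference. The centred values of Cldn7 and of Ocln no longer overlapped between the groups, which was true of 0.478% of all genes with lactation higher. The subtraction lowers this share too, from 4.24% before it, so the same limit holds. For Ocln they were -2.24, -2.07 and -1.82 in lactation tumours and -2.32, -2.34 and -2.54 in controls, on the log2 scale relative to the markers. For Cldn7 they were -0.20, -0.23 and -0.04 against -0.29, -0.54 and -0.25. Neither passed, with limma adjusted p values of 0.719 for Ocln and 0.721 for Cldn7. Their unadjusted limma p values were 0.224 and 0.46, higher than the 0.0438 and 0.0935 before centring.

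Other tight junction genes were taken from a list of 67, of which 60 had a named probe set and 49 passed the level filter. None of the 49 passed the adjusted test, 29 were higher and 20 lower in lactation, and their median difference was 0.02. The other membrane proteins were the group nearest to the members: 9 of 11 were higher, with a median of 0.25. In that group Crb3, an apical polarity protein, measured 696, 417 and 954 against 640, 350 and 435, a log2 difference of 0.49 that became 0.80 without lactation replicate 2. Dropping lactation replicate 3 gave 0.22, and dropping control replicate 2 gave 0.30. Igsf5, a relative of the adhesion molecules, had 0.66, and 0.26 without control replicate 2, where its signal was 50.4. Marveld3, a relative of occludin, had 0.33, and 0.68 without lactation replicate 2. Dropping lactation replicate 3 gave 0.06 for it, and dropping control replicate 3 gave 0.18. For 7 of the 11 genes lactation replicate 3 was the highest tumour, as it was for 17.0% of the genes tested.

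Scaffold and polarity genes were split, with 10 of 17 higher and a median of 0.13. Tjp3, the ZO-3 scaffold, measured 595, 335 and 618 in lactation and 439, 302 and 329 in controls, a log2 difference of 0.48 that was 0.76 without lactation replicate 2. Patj, a scaffold of the Crumbs complex, had 0.42, with 0.22 without lactation replicate 3, 0.69 without lactation replicate 2 and 0.25 as the mean of its probe sets. Amotl1, an angiomotin that binds actin and Hippo pathway proteins, went the other way without overlap, at 709, 714 and 664 against 721, 938 and 1283, a log2 difference of -0.45 (limma adjusted p 1.0). It was -0.24 without control replicate 3 and -0.17 as the mean of its probe sets. Among the genes tested, 3.19% did not overlap with lactation lower.

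The 5 other claudins above the filter had differences of -0.24 to 0.10, with 1 higher and 4 lower in lactation and a median of -0.02. Largest in size were those of Cldn15, Cldn10 and Cldn9. Cldn15, a cation pore of intestine, measured 172, 110 and 73.5 against 262, 136 and 66.1. Cldn10, an ion pore of kidney and glands, measured 256, 358 and 383 against 173, 260 and 616. The signs of all 3 turned when single arrays were left out, from -0.68 to 0.20 for Cldn15, from -0.28 to 0.59 for Cldn10 and from -0.93 to 0.47 for Cldn9. For none of the 5 was lactation replicate 3 the highest tumour.

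Of 16 regulators above the filter 9 were higher and 7 lower in lactation, with a median of 0.02. Among them Hnf4a, Grhl2 and St14 had the largest differences. Grhl2, an activator of epithelial junction genes, measured 41.4, 203 and 386 against 301, 185 and 318, a log2 difference of -0.69 that was 0.10 without lactation replicate 1, -1.31 without lactation replicate 3 and -0.06 as the mean of its probe sets. St14, the membrane protease matriptase, measured 1326, 1340 and 2521 against 1249, 902 and 1089, a log2 difference of 0.62 (limma adjusted p 1.0), and 0.31 without lactation replicate 3. Hnf4a, a nuclear receptor of hepatocytes and enterocytes, had 1.02 (limma adjusted p 1.0), and 0.54 without control replicate 3. The groups did not overlap for these 2 of the 16, with lactation higher, as for 3.71% of the genes tested. Snai1, Snai2 and Zeb1, repressors of junction genes, had -0.19, -0.27 and -0.24, with standard errors of 0.18, 0.37 and 0.17. Zeb2, of the same kind, had 0.03 (standard error 0.12). The groups overlapped for each of these repressors. Snai2 measured 598, 766 and 804 in lactation and 541, 743 and 1631 in controls, so its negative sign rests on control replicate 3.

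In adherens junctions and desmosomes, the contacts that lie below tight junctions, 11 of 13 genes above the filter were higher, with a median of 0.10 and none past the test. Pkp2, a desmosomal plaque protein, measured 1174, 979 and 1481 against 1142, 844 and 816, a log2 difference of 0.36, and 0.21 without lactation replicate 3. Nectin2, an immunoglobulin-like adhesion molecule, had 0.35, and Nectin3, of the same family, -0.40. Without lactation replicate 3 Nectin2 had 0.22, and without control replicate 3 Nectin3 had -0.15; as means of probe sets they had 0.22 and -0.16. Lactation replicate 3 was the highest tumour for 11 of the 13.

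**Figure D4:**
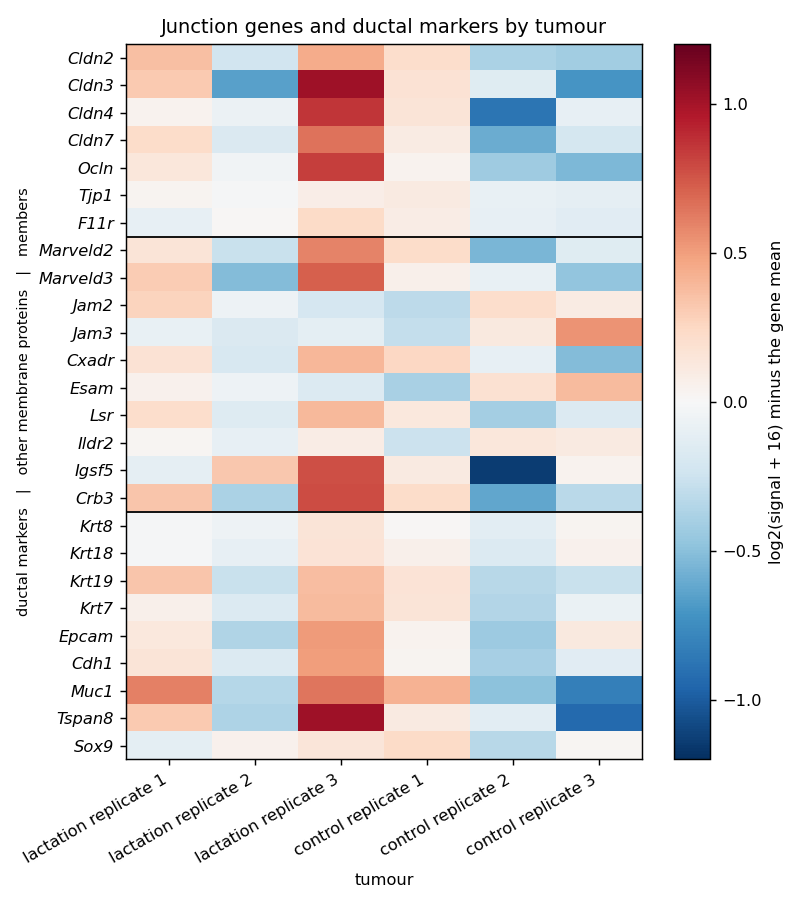
Log2(signal + 16) minus the gene's mean over the 6 tumours for 7 members, 10 other tight junction membrane proteins above the level filter and 9 ductal markers. Lactation replicate 3 is the highest tumour for 6 of the 7 members in the top block, and Tjp1 and F11r are the palest rows of that block.

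By the measure of Pearson r over the 6 tumours among 11616 other genes, the genes most like Cldn7 were Hs6st1 (0.998) and Cdh1 (0.994), which encodes E-cadherin. Those most like Cldn2 by profile were Grb7 and Elf3, an epithelial transcription factor with signals of 2186, 1371 and 2640 against 2016, 1195 and 1143. Those of Cldn3 were Stk38l and Dedd2, those of Cldn4 Evpl and Ist1, and those of Ocln Rpgr and Scel. Tjp1 was most like Fcsk and Tubgcp6, and F11r most like Plxnb1 and Txnrd3. With 6 tumours such values are common: 40 to 80 genes had r over 0.95 with each member.

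Promoter windows of 250 bases before a transcription start were read from RefSeq sequence of GRCm38.p6 for 9 of the 10 members, in 12 windows. They are shown because short motifs of known junction regulators can be looked up in them. Shared regulation was not tested, and none of the 15 pairs of members, which left out Cldn2, passed the correlation test. The letters CACCTG, an E-box that Snail and Zeb proteins can bind, were sought on both strands and were present in 17.2% of all 32851 windows of this length. They were present in 4 of the 9 members, Cldn4, Cldn7, Ocln and F11r, and in 4 of the 12 windows. In the sequences that follow, capitals mark these letters, read as CACCTG or CAGGTG, and for Cldn2 the letters TATAAA. The windows are chr5:134946935-134947184 on the minus strand for Cldn4, chr11:69965171-69965420 on the plus strand for Cldn7, chr13:100552499-100552748 on the minus strand for Ocln, chr1:171437311-171437560 on the plus strand for F11r and chrX:139800558-139800807 on the plus strand for Cldn2.
Cldn4: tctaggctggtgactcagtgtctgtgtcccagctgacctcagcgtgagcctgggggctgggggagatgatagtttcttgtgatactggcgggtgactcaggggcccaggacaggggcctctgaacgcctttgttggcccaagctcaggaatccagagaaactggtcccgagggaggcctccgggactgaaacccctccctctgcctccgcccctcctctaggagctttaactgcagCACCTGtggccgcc
Cldn7: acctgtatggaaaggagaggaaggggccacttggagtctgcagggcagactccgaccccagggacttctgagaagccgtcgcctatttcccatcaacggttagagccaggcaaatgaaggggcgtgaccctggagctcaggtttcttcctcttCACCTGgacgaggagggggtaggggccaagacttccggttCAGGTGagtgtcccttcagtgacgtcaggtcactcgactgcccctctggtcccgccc
Ocln: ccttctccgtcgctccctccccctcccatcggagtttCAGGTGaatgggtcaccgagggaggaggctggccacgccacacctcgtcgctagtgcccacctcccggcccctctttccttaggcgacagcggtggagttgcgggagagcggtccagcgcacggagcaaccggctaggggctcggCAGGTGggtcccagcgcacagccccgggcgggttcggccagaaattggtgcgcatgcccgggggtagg
F11r: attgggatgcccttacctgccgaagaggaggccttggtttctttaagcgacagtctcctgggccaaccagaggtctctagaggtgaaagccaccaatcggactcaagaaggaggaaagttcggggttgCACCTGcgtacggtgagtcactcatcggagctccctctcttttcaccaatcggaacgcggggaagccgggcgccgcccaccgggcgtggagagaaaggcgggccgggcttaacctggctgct
Cldn2: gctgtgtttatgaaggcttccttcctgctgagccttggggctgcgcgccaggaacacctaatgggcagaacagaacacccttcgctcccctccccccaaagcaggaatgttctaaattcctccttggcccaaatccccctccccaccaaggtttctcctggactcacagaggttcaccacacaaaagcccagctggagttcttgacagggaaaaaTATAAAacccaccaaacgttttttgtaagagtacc

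The E-box of Cldn4 began 14 bases before the start, those of Cldn7 97 and 57 bases before it, those of Ocln 213 and 68 and that of F11r 122. Cldn7 and Ocln each have a second window in the table, which held no such letters. Cldn2 was the one member with TATAAA, sought on both strands, 35 bases before its start, where 12.4% of all windows hold these letters. It was also the one with TTTATG, a motif of CDX factors sought on both strands, 244 bases before the start, against 10.8% of all windows. GGGCGG, the GC box of SP1, was present on either strand in 8 of the 12 windows, against 32.7% of all windows. AACNGGTT, a motif of grainyhead factors, was in 0 of the 12 windows and in 1.8% of all. The motifs do not overlap in letters except where TTTATG and TATAAA share TTTAT when read on opposite strands. A match describes these letters in this window and no binding was measured.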

How the data were processed

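Total RNA of 6 tumours was labelled with biotin for 3' Affymetrix arrays, per the labels' protocols. The authors deposited 1 linear intensity for each of 45101 probe sets, the signal of the MAS5 algorithm (per the submitters' processing notes, which name no version). The 2% trimmed mean was 500.0 on every array. Detection calls and scan batches were not used here. Platform annotation gave 1 symbol to 34958 probe sets, several to 932 and none to 9211, and only the first were used; 34754 matched the reference by Entrez identifier, with 0 symbols changed.

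Signals were taken as log2(signal + 16), so folds of dim genes are understated, with no further normalization. Genes were represented by their probe set of highest mean and kept where at least 3 arrays reached the array median. Groups were compared with limma 3.58.1 in R 4.3.3 (intensity trend, Benjamini-Hochberg at 0.05) over 11623 genes; members below the filter took values from a fit with no filter. The median standard error was 0.137. On simulated data with 200 of 11623 genes changed, the fit recovered 68.4% of 2-fold and 91.2% of 4-fold changes, with 5.6 false calls per table. The simulated noise was independent between genes, and these rates are averages over genes. Standard errors of Cldn2, Cldn3, Cldn4, Cldn7 and Ocln, 0.23 to 0.42, were above the median, so the rates do not apply to them. Python 3.11.15, pandas 2.3.3, numpy 2.4.6 and matplotlib 3.10.9 made tables and plots.

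Members and lists were chosen with earlier results of these data known. All members were named, and of each other list the 3 tested genes of largest absolute difference; 2 genes most alike were named per member. Values of Epcam, Elf3, Snai1, Snai2, Zeb1, Zeb2 and the markers stand beside results they touch and were chosen after their values were seen. Epcam counts both as a ductal marker and among the other membrane proteins. Cdh1 counts both as a ductal marker and in the list of adherens junctions and desmosomes, so these lists are not separate. Alternatives were other normalizations, constants of 1 and 64, no filter or the 70th percentile, the mean of probe sets, no trend, robust eBayes, array weights, a replicate block and leaving out each array.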

Additional observations from a re-analysis of the deposited data

How the results depend on the processing

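0 genes passed over all genes in every alternative written beforehand, and no member passed in any. Centring on ductal markers, added after the data were seen, gave 15 calls, 2 higher and 13 lower, none of them a member, and a member median of 0.16 in place of 0.42. When single arrays were left out that median ranged from 0.16 to 0.63. With that centring Cldn1, Cldn18, Tjp1, F11r and Cldn10 reversed to -0.22, -0.10, -0.20, -0.17 and -0.16. Array weights turned Cldn1 to -0.02. Leaving out lactation replicate 1 with control replicate 2, the tumours of most muscle signal, turned Cldn9 to 0.65. Ranges that cross 0 when 1 array is left out were -0.16 to 0.26 for Cldn1, -0.14 to 0.41 for Cldn18, -0.68 to 0.20 for Cldn15, -0.28 to 0.59 for Cldn10, -0.93 to 0.47 for Cldn9 and -1.31 to 0.10 for Grhl2; the cause was not tested. Same-numbered tumours share only a number (correlations of deviations 0.143, -0.083 and 0.267), and the replicate block gave 0 calls and a member median of 0.42. No detection calls were used, so values under the array medians carry little weight.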

Other observations

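Cldn9, a claudin of the inner ear, had its highest signal of 1962 in lactation replicate 2, against 268 and 377 in the other lactation tumours and 628, 798 and 475 in controls. The same tumour held the milk protein signals, at 333 for Csn2, 359 for Csn1s1 and 396 for Csn3, where the other 5 tumours had 1.96 to 27.0, 2.63 to 13.1 and 53.9 to 76.3. In that tumour Cldn3 was 813 and Cldn2 was 2394. A link between these values was not tested.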
